A study of Mus musculus with 8 samples.

Results

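The genes of the nuclear transport machinery were compared between the Nrp-1+ and Nrp-1- subsets of iTreg, induced regulatory T cells that do or do not carry Neuropilin-1 on their surface. Members were taken by gene symbol: every symbol that begins with Nup, Kpna, Kpnb or Ipo and a number, every Xpo gene, and Tpr, Aaas, Seh1l, Sec13, Ran, Ranbp1, Ranbp2, Rangap1, Rcc1 and Cse1l. This rule found 52 of the 23361 genes of the expression table, and 48 of them passed the filter of a mean of at least 1 FPKM (mapped fragments scaled to transcript length and to the library's total) over the 8 libraries. Ndc1, a membrane nucleoporin that the rule also names, was not listed under that symbol. Nucleoporins whose symbols the rule does not match (Nupl1, Nupl2, Pom121, Rae1, Ahctf1) were outside it and are counted with the other pathway genes.

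All libraries came from wild-type mice carrying Foxp3-RFP, a red fluorescent reporter of the transcription factor Foxp3. Naive CD4+ T cells were cultured with anti-CD3/CD28 beads (1 bead for 5 cells), IL-2 at 50 U/ml and TGF-β at 2 ng/ml, and the labels give 3 days of culture in one field and day 5 in another. Viable CD4+ cells with Foxp3-RFP were sorted, then divided by surface Nrp-1 into 4 libraries of Nrp-1+ and 4 libraries of Nrp-1- cells, which the labels call biological replicates 1 to 4. Nothing else differed between the groups by the labels: genotype, culture and both cytokines were shared. The labels do not say whether the replicates came from separate mice or cultures, so the p-values measure the spread between these libraries, which may be technical. By the methods, the mice were 7 to 8 weeks old.

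The nucleus exchanges proteins and RNA with the cytoplasm through nuclear pore complexes, which are rings of many copies of nucleoporins set in the nuclear envelope. Importins carry cargo with a nuclear localization signal inward, exportins carry cargo with an export signal outward, and the small GTPase Ran gives the direction, since it is kept bound to GTP in the nucleus and to GDP in the cytoplasm. In T cells the same route carries transcription factors such as NFAT, NF-κB and Smad proteins into the nucleus after stimulation, and pores are built in interphase and reassembled after mitosis, so that dividing cells make new pore components.

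Promoter sequences are shown for 6 members chosen as examples of the motifs: Ran and Ranbp1 of the Ran cycle, Nup62 and Nup107 of the pore, the importin Kpna2, which changed most, and its relative Kpna4, which was not called. The bases lie upstream of the RefSeq start, 5′ to 3′ on the strand of the gene, on build GRCm38.p6, and capitals mark matches to any of 7 short motifs.
Ran, chr5:129019946-129020155, plus strand: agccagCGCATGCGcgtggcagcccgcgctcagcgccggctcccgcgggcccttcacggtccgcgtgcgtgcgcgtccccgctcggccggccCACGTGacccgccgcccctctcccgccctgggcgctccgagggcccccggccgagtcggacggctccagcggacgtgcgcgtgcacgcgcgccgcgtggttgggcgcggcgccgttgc
Nup62, chr7:44815968-44816087, plus strand: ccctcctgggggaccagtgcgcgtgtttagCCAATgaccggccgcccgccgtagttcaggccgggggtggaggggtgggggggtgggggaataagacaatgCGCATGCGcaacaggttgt
Nup107, chr10:117792737-117792825, minus strand: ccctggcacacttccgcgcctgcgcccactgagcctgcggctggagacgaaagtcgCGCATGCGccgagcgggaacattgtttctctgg
Kpna2, chr11:106999526-106999645, minus strand: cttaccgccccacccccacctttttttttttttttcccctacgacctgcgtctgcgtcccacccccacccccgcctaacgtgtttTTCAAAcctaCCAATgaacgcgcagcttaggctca
Kpna4, chr3:69127093-69127212, minus strand: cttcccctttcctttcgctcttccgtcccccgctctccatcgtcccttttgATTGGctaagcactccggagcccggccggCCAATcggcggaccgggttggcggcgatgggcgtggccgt
Ranbp1, chr16:18248695-18248814, minus strand: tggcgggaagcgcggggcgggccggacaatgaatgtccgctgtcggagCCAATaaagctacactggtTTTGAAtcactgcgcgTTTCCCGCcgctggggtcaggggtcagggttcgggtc

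The motifs were searched on both strands in windows of 250 bases before and 50 bases after the start, 1 window for each gene, which were available for 40 of the 52 members and 38 of the 48 tested. CGCATGCG, the core of the NRF1 site, is its own reverse complement. It stood in 13.2% of the tested members' windows, against 4.6% of the 7700 windows of genes tested and 1.91% of all 27025 windows. The 5 members with it were Ran, Nup62, Nup107, Nup50 and Xpo5. The E-box CACGTG was in 21.1% of the members' windows, against 10.9% and 7.24%. It was in 4 of the 24 windows of members called higher, among them Ran at -118 from the start and Nup93 at -175, and in 4 of the 14 windows of members that were not. ATTGG, the CCAAT box that NF-Y binds, was in 47.4% of the members' windows, against 39.8% and 37.9%.

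TTTGAA, an element of cell cycle promoters, was in 26.3% of the members' windows, against 11.6% and 18.1%, and its variant TTTAAA in 2.63%, against 8.52% and 13.2%. The Kpna2 window holds TTTGAA on the other strand at -35, beside a CCAAT box at -25. The E2F motif TTTCCCGC was in 5.26% of the members' windows (2 of 38, Ranbp1 and Nup210), against 2.36% and 1.11%, and TTTGGCGC was in 0 of them, against 1.22% and 0.537%. These matches describe letters, and binding of any factor was not measured.

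The sort and the cell type could be read from the table. Nrp1 had a mean of 21.5 FPKM (SD 0.709, n = 4) among Nrp-1+ iTreg libraries, against 4.95 FPKM (SD 0.262) among the Nrp-1- ones. Cd3e, Cd3g and Cd4 were above 200 FPKM and Foxp3 above 100 FPKM in all 8 libraries, while Ms4a1, Csf1r, Cd14 and Cd8a were at 0.111 FPKM or less. Of the markers of other cells, Cd79b of the B cell receptor was at 4.82 to 5.32 FPKM in the Nrp-1+ and 3.64 to 5.38 FPKM in the Nrp-1- subset. Cd8b1 was at 7.07 to 8.77 FPKM in the Nrp-1+ and 9.28 to 11.3 FPKM in the Nrp-1- subset, Itgam at 6.38 to 7.001 and 5.38 to 5.73 FPKM, and the globin gene Hba-a1 at 5.48 to 7.53 and 2.01 to 3.25 FPKM. Summed over each list, myeloid markers (4 of 5 listed) were at 6.44 to 7.17 and 5.38 to 6.19 FPKM, dendritic cell markers (4 genes) were under 0.148 FPKM and NK cell markers (3 genes) under 1.02 FPKM in every library, and red cell markers were represented by Hba-a1 alone. The part of these genes in the differences between the members was not tested. Relative depth, read from the steps between low FPKM values, was between 0.81 and 1.23 of that of replicate 1 of Nrp-1+ iTreg, and between 1.81% and 43.9% of a library's FPKM fell on short RNA genes such as microRNA. That share was highest in Nrp-1+ iTreg replicates 2 and 4 and in Nrp-1- iTreg replicate 1, so results were also computed without these 3 libraries.

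Nuclear transport genes were mostly higher in Nrp-1+ iTreg. Of the 48 tested, 30 were higher and 2 lower, and 16 were not called, at an adjusted p under 0.05 by limma with Benjamini-Hochberg adjustment over all 10467 genes tested. As a share, 62.5% of the members were called higher, against 20.9% of all genes tested, and 4.17% lower, against 20.0%. In 29 members (60.4%) every Nrp-1+ iTreg library lay above every Nrp-1- iTreg library, against 20.2% of all genes, and in 1 (Kpna6, 2.08%) below, against 19.3%. The Nrp-1+ iTreg over Nrp-1- iTreg fold change is given throughout on the log2(FPKM + 1) scale, where its median was 0.17 over the members (quartiles 0.02 and 0.50) and -0.016 over all genes tested. A fold change over 0.5 was reached by 12 members (25%), against 6.02% of all genes.

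Under another scaling the members' calls stayed mostly higher. With each library corrected for GC content and transcript length, 30 members were higher and 4 lower, so that 88.2% of their calls were higher. Among all genes the share of higher calls fell from 51.1% to 40.04%. Without the 3 libraries rich in short RNA, 26 members were higher and 1 lower, beside 1524 higher and 1230 lower of all genes tested. Summed over the members, FPKM was between 1737 and 1767 in Nrp-1+ libraries and between 1398 and 1419 in Nrp-1- libraries. In bulk RNA, a larger share of cells with a high level and a higher level in each cell cannot be told apart.

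**Figure D1:**
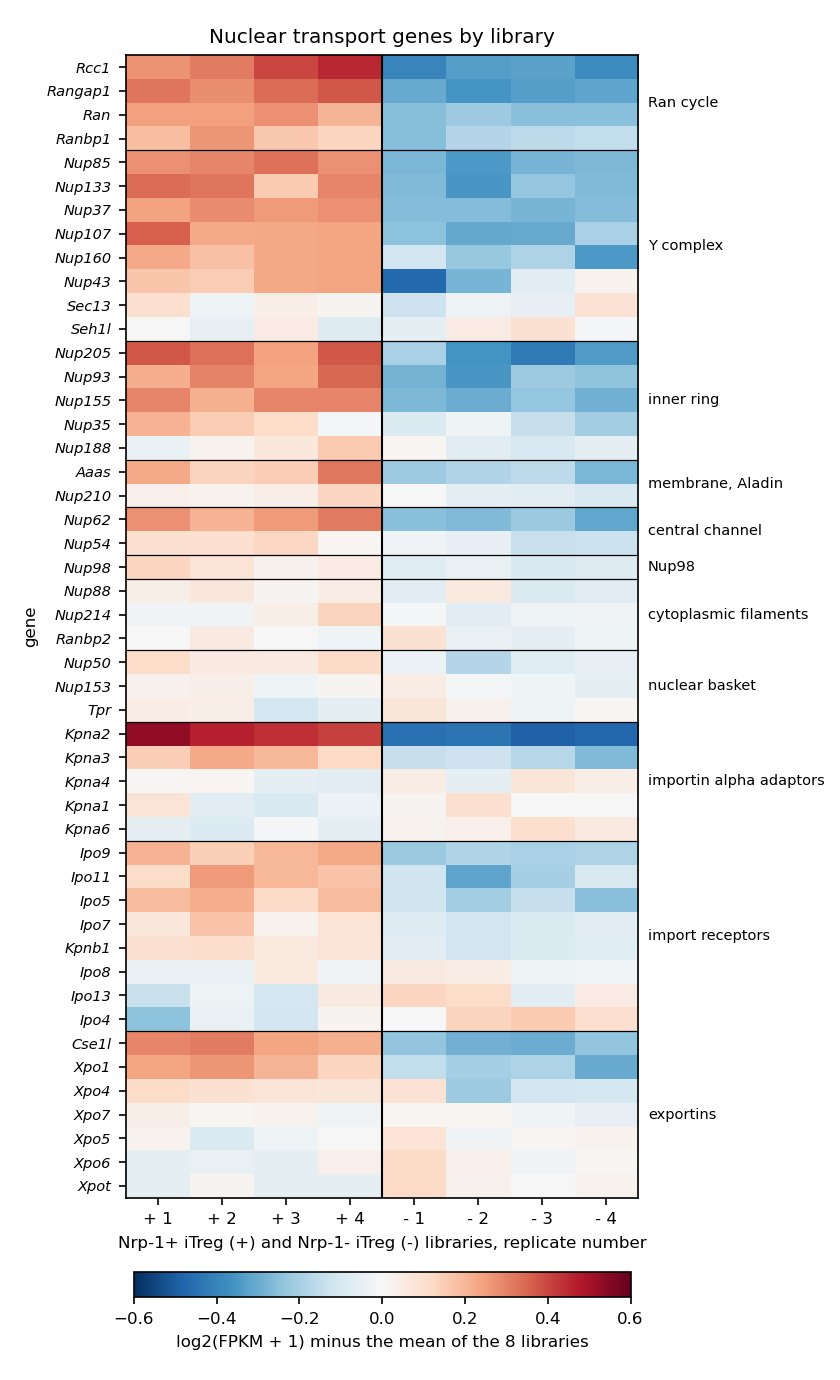
Level of each of the 48 tested nuclear transport genes (rows, by role) in each library (columns, 4 of Nrp-1+ iTreg at the left and 4 of Nrp-1- iTreg at the right), as log2(FPKM + 1) minus the gene's mean over the 8 libraries (colour, from -0.6 to 0.6). The Ran cycle, most of the Y complex and inner ring, Kpna2, Cse1l and Xpo1 were above their mean in every Nrp-1+ iTreg library, whereas cytoplasmic filament genes and most other exportins stayed near 0.

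**Figure D2:**
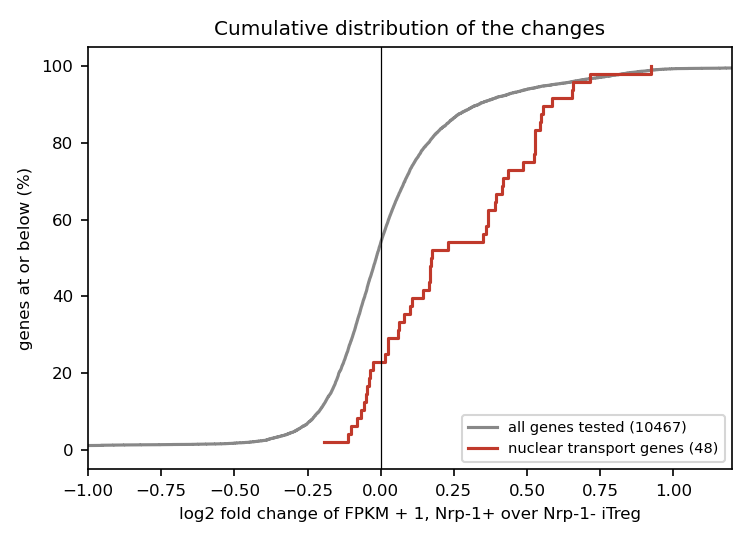
Cumulative share (y axis, %) of genes at or below each log2 fold change of FPKM + 1, Nrp-1+ over Nrp-1- iTreg (x axis), for the 48 nuclear transport genes and for all 10467 genes tested. The line of the nuclear transport genes lies to the right of the line of all genes over most of its length, with medians of 0.17 and -0.016.

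All 4 genes of the Ran cycle were higher in Nrp-1+ iTreg, against 20.9% of all genes tested. Their summed FPKM was 421 to 429 in Nrp-1+ iTreg and 292 to 298 in Nrp-1- iTreg. Ran, the GTPase itself (chr5:129020156-129024322), had the largest mean of all members. It was at 203.3, 203.1, 206.9 and 197.4 FPKM in Nrp-1+ iTreg replicates 1 to 4 and at 143.3, 146.8, 143.7 and 143.6 FPKM in Nrp-1- iTreg. The gap of 40.4% between the means exceeded the spread within each group many times over, with a log2 fold change of 0.49 (SE 0.02, adjusted p = 8.01e-07 by limma). Reads of Ran could be divided with near-identical copies elsewhere in the genome, so its level is uncertain to that extent; the Ran-like retrogene Rasl2-9 did not pass 0.098 FPKM.

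Rcc1, the chromatin-bound exchange factor that loads Ran with GTP in the nucleus, changed most within the cycle. Its FPKM was 33.4, 34.5, 36.7 and 38.2 in Nrp-1+ iTreg and 20.7, 21.7, 21.9 and 20.97 in Nrp-1- iTreg, an increase of 67.5% (log2 fold change 0.72, SE 0.04, adjusted p = 5.78e-06 by limma). The groups were far apart, although Nrp-1+ iTreg libraries varied more. Rangap1, which makes Ran hydrolyse its GTP on the cytoplasmic side, was at 95.8, 93.1, 96.7 and 99.4 FPKM against 61.9, 59.7, 60.7 and 61.2 FPKM (log2 fold change 0.65, SE 0.02, adjusted p = 4.41e-07). Its lowest Nrp-1+ iTreg library was well above its highest Nrp-1- iTreg library. Ranbp1, a cofactor of that hydrolysis, showed the smallest change of the cycle: 89.5, 94.96, 88.3 and 86.1 FPKM against 65.9, 69.6, 70.5 and 70.98 FPKM (log2 fold change 0.37, SE 0.04, adjusted p = 0.000104). Its groups did not overlap either. The factors that charge and discharge Ran thus both rose, with overlapping 95% intervals of 0.62 to 0.81 for Rcc1 and 0.60 to 0.71 for Rangap1.

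**Figure D3:**
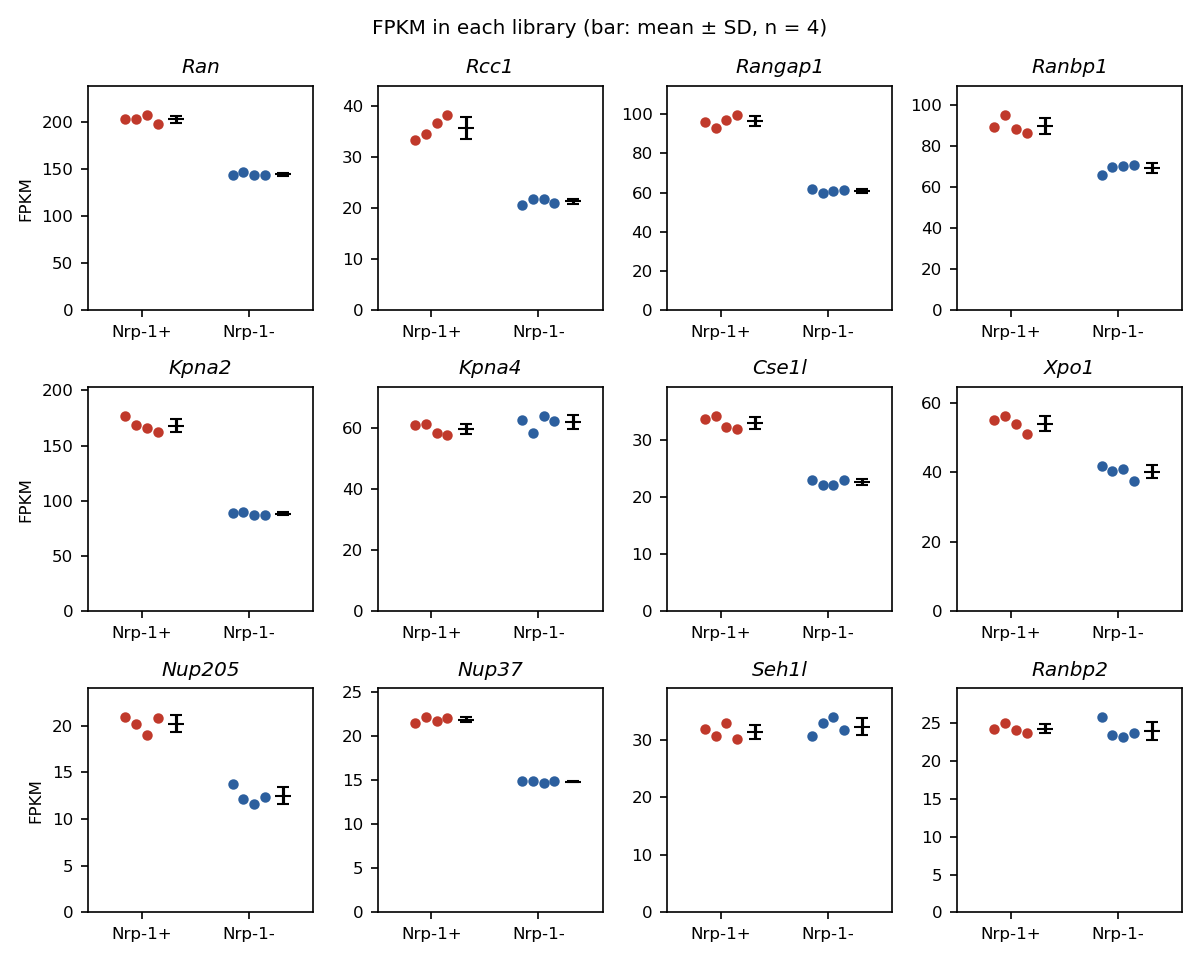
FPKM (y axis, from 0) of 12 members in each library (points: 4 Nrp-1+ iTreg in red, 4 Nrp-1- iTreg in blue) with the group mean ± SD (bars, n = 4). The groups do not overlap for the 4 genes of the Ran cycle, Kpna2, Cse1l, Xpo1, Nup205 and Nup37, and they overlap for Kpna4, Seh1l and Ranbp2.

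The Y complex is the scaffold that forms the outer rings of the pore on both faces. Of its 8 genes 6 were higher, against 20.9% of all genes tested. Nup85 was at 24.3, 24.7, 25.3 and 24.3 FPKM in Nrp-1+ iTreg and at 16.3, 15.5, 16.3 and 16.4 FPKM in Nrp-1- iTreg (log2 fold change 0.58, SE 0.03, adjusted p = 1.11e-06 by limma). Nup133, at the end of the stalk of the Y, was at 8.19, 8.10, 7.13 and 7.93 FPKM against 5.07, 4.72, 5.20 and 5.07 FPKM (0.55, SE 0.05, adjusted p = 4.97e-05). In both genes the groups were apart by more than 1 FPKM, and the percent increases of 53.0% and 56.4% were alike. Nup37 varied little within each group, at 21.5, 22.2, 21.8 and 22.1 FPKM against 14.9, 14.9, 14.7 and 14.9 FPKM (0.53, SE 0.02, adjusted p = 4.81e-07). Nup107, another stalk subunit, was at 26.9, 24.5, 24.6 and 24.7 FPKM against 17.4, 16.6, 16.7 and 18.1 FPKM (0.53, SE 0.04, adjusted p = 2.17e-05). Replicate 1 of Nrp-1+ iTreg stood above the rest for Nup107, and the other 3 libraries also lay above every Nrp-1- iTreg library.

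Nup160 was at 12.9, 12.4, 12.9 and 12.9 FPKM in Nrp-1+ iTreg and at 9.94, 9.12, 9.41 and 8.31 FPKM in Nrp-1- iTreg (log2 fold change 0.44, SE 0.05, adjusted p = 0.000207 by limma). Here the Nrp-1- iTreg libraries were the more variable ones. Nup43 ranged from 8.38 to 8.92 FPKM against 5.11 to 7.55 FPKM, the widest relative spread among the called members (0.39, SE 0.10, adjusted p = 0.0135), and it was not called without the 3 libraries rich in short RNA (0.31, adjusted p = 0.0930). The remaining subunits were Seh1l and Sec13, which also work outside the pore: both belong to the GATOR2 complex of amino acid sensing, and Sec13 coats COPII vesicles at the endoplasmic reticulum. Seh1l ranged from 30.1 to 32.9 FPKM against 30.6 to 33.9 FPKM (-0.04, 95% interval -0.13 to 0.05, adjusted p = 0.459). Sec13 ranged from 61.6 to 67.4 FPKM against 57.7 to 66.9 FPKM (0.06, 95% interval -0.05 to 0.17, adjusted p = 0.340). Both intervals end below those of Nup85 (0.52 to 0.64) and Nup37 (0.48 to 0.57). Per transcript length they were also the most abundant of the 8 genes, with means in Nrp-1+ iTreg of 31.4 and 64.3 FPKM against 7.84 to 25.2 FPKM in the other 6.

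In the inner ring, which lines the membrane side of the pore, 4 of 5 genes were higher (80.0%, against 20.9% of all genes tested). Nup205 was at 20.9, 20.2, 18.9 and 20.8 FPKM in Nrp-1+ iTreg and at 13.7, 12.2, 11.6 and 12.3 FPKM in Nrp-1- iTreg, the largest change of any nucleoporin found by the rule (log2 fold change 0.66, SE 0.05, adjusted p = 3.13e-05 by limma). Nup93, which holds the ring together, was at 14.8, 15.6, 14.9 and 16.2 FPKM against 10.1, 9.61, 10.6 and 10.5 FPKM (0.55, SE 0.04, adjusted p = 1.93e-05). Nup155, which binds the membrane, was at 8.19, 7.67, 8.17 and 8.18 FPKM against 5.21, 5.09, 5.37 and 5.14 FPKM (0.55, SE 0.03, adjusted p = 6.11e-06). In these 3 genes the lowest Nrp-1+ iTreg library was above the highest Nrp-1- iTreg library by at least 2 FPKM.

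Nup35 changed less, from 7.37 to 8.73 FPKM against 6.30 to 7.28 FPKM (log2 fold change 0.23, adjusted p = 0.0132 by limma; 0.28 and adjusted p = 0.0507 without the 3 libraries rich in short RNA). Nup188, a large ring protein related to Nup205, ranged from 13.5 to 15.6 FPKM against 12.97 to 14.01 FPKM (0.10, adjusted p = 0.102) and of the alternatives run was called only without replicate 1 of Nrp-1+ iTreg (0.13, adjusted p = 0.0464). The related pair thus differed in change: the 95% interval was 0.54 to 0.78 for Nup205 and -0.00036 to 0.20 for Nup188.

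Of the genes anchored in or near the membrane, Aaas encodes Aladin, a WD-repeat protein held at the pore by Ndc1. Aaas was at 35.9, 33.6, 33.96 and 38.3 FPKM in Nrp-1+ iTreg and at 26.05, 26.8, 27.3 and 25.1 FPKM in Nrp-1- iTreg (log2 fold change 0.41, SE 0.05, adjusted p = 0.00019 by limma), with the groups apart. Nup210, a membrane glycoprotein that varies between tissues, was the pore gene with the highest FPKM, which is per length, at 74.3 to 80.1 FPKM against 68.8 to 73.2 FPKM. Its increase of 7.84% was small (0.11, adjusted p = 0.0237), and it was not called without replicate 2, 3 or 4 of Nrp-1- iTreg (adjusted p = 0.0509, 0.0592 and 0.0619) nor with the replicate number as a block (adjusted p = 0.0768). Tmem48, the older symbol of Ndc1 and outside the rule, was at 8.12 ± 0.208 FPKM against 4.599 ± 0.683 FPKM (SD, n = 4; 0.71, SE 0.08, adjusted p = 0.00026).

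The FG nucleoporins fill the channel with repeats of phenylalanine and glycine that transport receptors bind. Nup62, the core of the central channel complex, was at 47.5, 45.3, 46.8 and 48.7 FPKM in Nrp-1+ iTreg and at 32.7, 32.3, 33.4 and 31.3 FPKM in Nrp-1- iTreg (log2 fold change 0.53, SE 0.03, adjusted p = 3.78e-06 by limma). Its groups were more than 10 FPKM apart. Nup54, its partner, changed by 0.17 (15.3 to 16.6 FPKM against 13.7 to 14.9 FPKM, adjusted p = 0.00802), and the 95% intervals of the partners were apart, at 0.46 to 0.59 and 0.08 to 0.25. The readthrough symbol Nup62-il4i1 shares sequence with Nup62 and was at 0.287 to 0.611 FPKM, so a division of reads between the 2 symbols is uncertain but small in FPKM. Nup98, a mobile FG nucleoporin whose transcript also encodes the Y complex subunit Nup96, was at 17.2, 16.6, 15.9 and 16.2 FPKM against 14.8, 15.1, 14.6 and 14.8 FPKM (0.15, SE 0.03, adjusted p = 0.00404). Its groups did not overlap but lay close together. Without the 3 libraries rich in short RNA it was not called, at a log2 fold change of 0.15 (adjusted p = 0.0709 by limma).

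At the cytoplasmic face, 0 of 3 filament genes were called by limma, 1 of 3 passed an unadjusted p of 0.05, as did 49.5% of all genes tested, and 0 of 3 had groups that did not overlap. With 20.9% of all genes called higher and 20.0% lower, a count over 3 genes is given as a description and says nothing particular to the filaments. Nup88 was at 30.7, 31.4, 30.3 and 30.9 FPKM in Nrp-1+ iTreg and at 28.6, 31.3, 28.1 and 28.6 FPKM in Nrp-1- iTreg (log2 fold change 0.08, SE 0.03, adjusted p = 0.0964). Replicate 2 of Nrp-1- iTreg alone lay within the Nrp-1+ iTreg range, and without it Nup88 was called (0.11, adjusted p = 0.00698). Nup214, which binds Nup88 and the exportin Xpo1, ranged from 12.1 to 13.6 FPKM against 11.7 to 12.2 FPKM (adjusted p = 0.220). Ranbp2, the giant filament protein that holds SUMO-modified RanGAP1, ranged from 23.6 to 25.1 FPKM against 23.2 to 25.7 FPKM (0.02, 95% interval -0.07 to 0.10, adjusted p = 0.770), while Rangap1 itself changed by 0.65.

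At the nuclear basket 1 of 3 genes was higher, which is likewise too few genes to set against the 20.9% of all genes. This was Nup50, a mobile nucleoporin that helps to release cargo from importin α. It was at 28.2, 27.2, 27.1 and 28.3 FPKM in Nrp-1+ iTreg and 25.5, 23.0, 24.8 and 25.2 FPKM in Nrp-1- iTreg (log2 fold change 0.17, SE 0.04, adjusted p = 0.00644 by limma). Without the 3 libraries rich in short RNA it was not called, at a log2 fold change of 0.18 (adjusted p = 0.0593). The groups did not overlap. The fibres of the basket, Tpr (53.9 to 59.8 FPKM against 56.9 to 61.1 FPKM) and its anchor Nup153 (49.2 to 51.5 FPKM against 48.2 to 51.8 FPKM), changed by -0.04 (95% interval -0.13 to 0.05) and 0.03 (-0.04 to 0.09) and were not called. The sign of Nup153 was not stable, since it turned to -0.0043 with the GC and length correction.

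**Figure D4:**
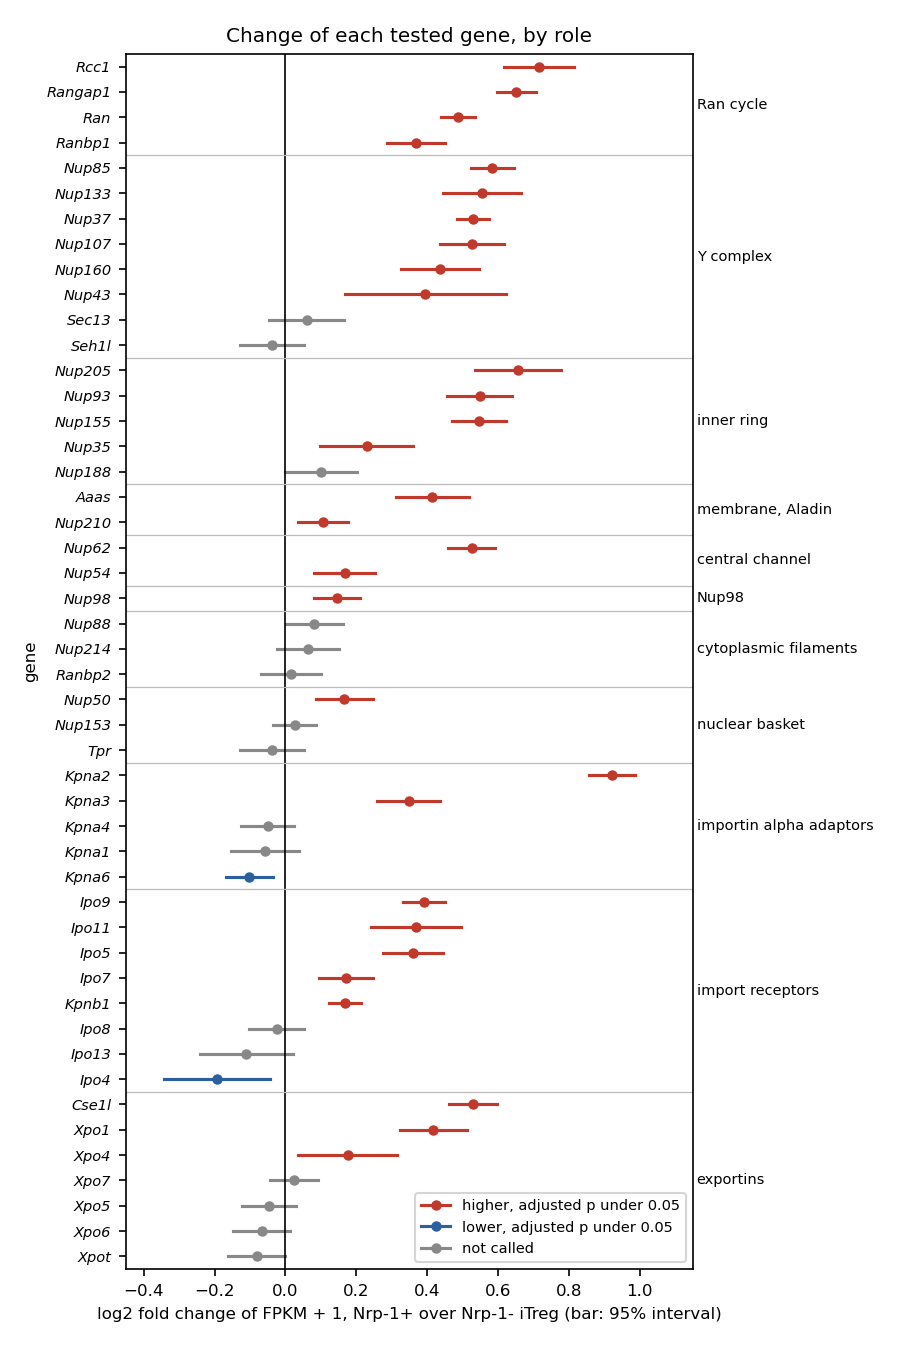
Log2 fold change of FPKM + 1, Nrp-1+ over Nrp-1- iTreg (x axis), of the 48 tested members (y axis, by role), with 95% intervals from limma (bars) and colours for genes called higher (30, red), called lower (2, blue) or not called (16, grey). Kpna2 lies farthest right at 0.92, and within the Y complex, inner ring, importin α and exportin classes called and uncalled members stand side by side.

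The importin α family holds the adaptors that read the classical nuclear localization signal and bind importin β. Of its 5 tested genes 2 were higher and 1 lower by limma, against 20.9% and 20.0% of all genes tested. These are too few genes to set against those shares, so the counts are given as a description. Kpna2 (importin α1, chr11:106988629-106999525) was at 176.5, 168.5, 165.7 and 162.0 FPKM in Nrp-1+ iTreg and at 89.0, 89.6, 86.9 and 87.5 FPKM in Nrp-1- iTreg. This increase of 90.6% was the largest of all 48 members and ranked 113 among all genes tested (log2 fold change 0.92, SE 0.03, adjusted p = 2.33e-07 by limma). Kpna3 was higher as well, from 19.98 to 21.6 FPKM against 15.1 to 16.7 FPKM (0.35, adjusted p = 0.000217). Kpna6 was lower, from 8.996 to 9.49 FPKM against 9.75 to 10.3 FPKM (-0.10, adjusted p = 0.0222), a change of -7.56% without overlap that was not called without replicate 2 of Nrp-1+ iTreg or replicates 3 or 4 of Nrp-1- iTreg (adjusted p = 0.0603, 0.0554 and 0.0508).

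Kpna4 (57.8 to 61.2 FPKM against 58.4 to 63.7 FPKM, adjusted p = 0.255) and Kpna1 (13.6 to 15.4 FPKM against 14.5 to 15.7 FPKM, adjusted p = 0.307) were not called, with log2 fold changes of -0.05 and -0.06. Kpna7, an adaptor of oocytes and early embryos, did not pass 0.0477 FPKM. Because FPKM is scaled to transcript length, the adaptors can be set beside each other: Kpna2 made up 61.5% to 62.5% of the summed importin α FPKM in Nrp-1+ iTreg and 45.3% to 47.1% in Nrp-1- iTreg, and Kpna4 21.6% to 22.3% and 30.7% to 33.2%. The order Kpna2, Kpna4, Kpna3, Kpna1, Kpna6 was that of the group means in both subsets.

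**Figure D5:**
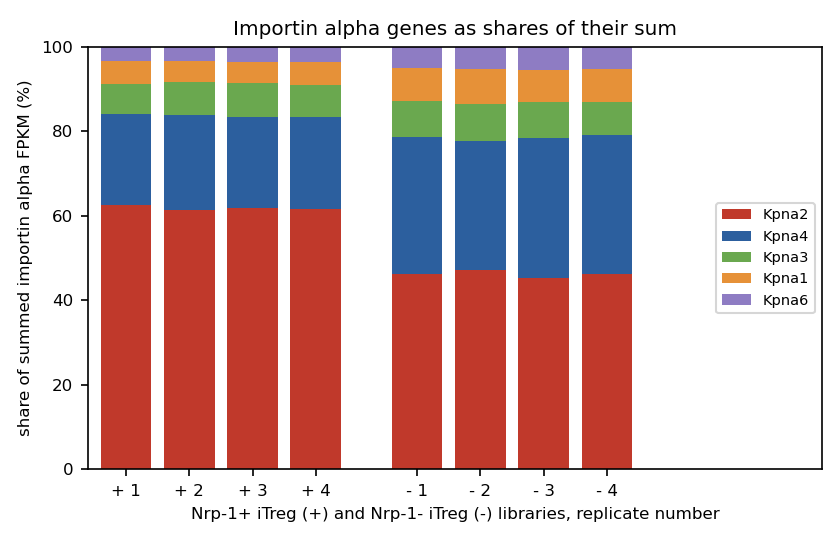
Share (y axis, %) of each importin α gene in the summed FPKM of the family, for each library (bars, 4 of Nrp-1+ and 4 of Nrp-1- iTreg). Kpna2 takes 61.5% to 62.5% in Nrp-1+ iTreg and 45.3% to 47.1% in Nrp-1- iTreg, and Kpna7 is too low to be seen.

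Among the import receptors of the importin β family, 5 of 8 were higher and 1 lower. As shares these are 62.5% and 12.5%, against 20.9% and 20.0% of all genes tested. Kpnb1, importin β1 itself, lay between 81.1 and 83.8 FPKM in the Nrp-1+ and between 72.0 and 74.4 FPKM in the Nrp-1- subset (log2 fold change 0.17, SE 0.02, adjusted p = 0.000297 by limma), an increase of 12.5% beside the 90.6% of its adaptor Kpna2. The other receptors called higher carry cargo without an adaptor. Ipo9, which carries histones and actin, was at 17.3, 16.5, 17.2 and 17.5 FPKM against 12.6, 13.0, 12.9 and 13.0 FPKM (0.39, SE 0.03, adjusted p = 9.73e-06), with tight groups far apart.

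Ipo5 (34.4 to 37.0 FPKM against 26.4 to 29.0 FPKM) and Ipo7 (36.4 to 40.5 FPKM against 33.1 to 34.1 FPKM), receptors for ribosomal proteins and histones among others, changed by 0.36 (adjusted p = 0.000128) and 0.17 (adjusted p = 0.00405). Ipo11 changed by 0.37 (9.61 to 10.8 FPKM against 6.90 to 8.21 FPKM, adjusted p = 0.0011). In these genes, too, the groups did not overlap. Ipo8, the closest relative of Ipo7, was at 13.9 to 15.1 FPKM against 14.1 to 14.97 FPKM (-0.03, 95% interval -0.10 to 0.05, adjusted p = 0.578). Ipo13, which works in both directions, was at 7.89 to 9.13 FPKM against 8.32 to 9.69 FPKM (-0.11, adjusted p = 0.158). Ipo4, an importin of histones and ribosomal proteins, was lower at the threshold, with groups that overlapped (3.39 to 4.26 FPKM against 4.19 to 4.80 FPKM; -0.19, SE 0.06, adjusted p = 0.0429). Its call was lost without replicates 1, 2 or 3 of Nrp-1+ iTreg (adjusted p = 0.0826, 0.0582 and 0.0908) or replicates 2, 3 or 4 of Nrp-1- iTreg (0.0953, 0.101 and 0.0845).

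Of the 7 exportins, 3 were higher (42.9%, against 20.9% of all genes tested by limma). In 2 of the 7 every Nrp-1+ iTreg library lay above every Nrp-1- iTreg library (28.6%, against 20.2%). Cse1l, the exportin that returns importin α to the cytoplasm after import, changed most. It was at 33.7, 34.2, 32.4 and 31.9 FPKM in Nrp-1+ iTreg and at 23.1, 22.2, 22.1 and 23.0 FPKM in Nrp-1- iTreg (log2 fold change 0.53, SE 0.03, adjusted p = 3.83e-06 by limma). Xpo1, the main exportin for proteins with a leucine-rich export signal, ranged from 51.0 to 56.2 FPKM against 37.6 to 41.9 FPKM (0.42, SE 0.04, adjusted p = 0.000102). Both genes had groups apart by more than 8 FPKM. Xpo4, known for the export of eIF5A and Smad3, ranged from 8.04 to 8.29 FPKM against 6.38 to 8.14 FPKM and overlapped through replicate 1 of Nrp-1- iTreg (0.18, SE 0.06, adjusted p = 0.0482). Its adjusted p was between 0.0843 and 0.104 without any single library other than that one, and 0.00343 without it (0.24).

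The other 4 exportins were not called. Xpot, for tRNA, was at 9.58 to 10.2 FPKM against 10.01 to 10.96 FPKM (log2 fold change -0.08, adjusted p = 0.101 by limma), and it was called lower with quantile normalization (-0.10, adjusted p = 0.0393) and with the GC and length correction (-0.11, adjusted p = 0.0253). Xpo5, for microRNA precursors, was at 14.3 to 15.4 FPKM against 14.96 to 16.2 FPKM (-0.05, adjusted p = 0.304). Xpo6, for actin with profilin, was at 57.9 to 61.8 FPKM against 59.6 to 65.5 FPKM (-0.07, adjusted p = 0.164), and with the GC and length correction it was called lower (-0.09, adjusted p = 0.0487). Xpo7 was at 7.14 to 7.48 FPKM against 6.98 to 7.34 FPKM (0.02, adjusted p = 0.545). The 95% intervals of Xpo5 (-0.12 to 0.03), Xpo6 (-0.15 to 0.01) and Xpo7 (-0.04 to 0.09) all ended below that of Cse1l, 0.46 to 0.60. As shares of the summed exportin FPKM, Cse1l was at 17.3% to 18.1% against 13.3% to 14.3% and Xpo6 at 30.9% to 33.5% against 36.8% to 37.9%.

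The 4 members under the filter were near 0 in both groups. Besides Kpna7 and Nup62-il4i1, these were Nup210l (0.0659 to 0.306 FPKM), a testis relative of Nup210, and Nup62cl (0 to 0.0526 FPKM, listed at 0 in all Nrp-1- iTreg libraries).

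Genes of the pathway that the rule did not take also included more higher than lower calls. Of 43 such genes 42 were tested, 16 were higher and 2 lower by limma (38.1% and 4.76%, against 20.9% and 20.0% of all genes tested), and their median log2 fold change was 0.06. The largest changes were those of Lmnb1, Lmnb2 and Alyref. Lmnb1, which encodes lamin B1 of the nuclear lamina, was at 152.2 ± 2.53 FPKM (SD, n = 4) against 86.7 ± 2.01 FPKM (0.80, adjusted p = 2.33e-07 by limma). The lamin gene Lmnb2 was at 11.3 ± 0.325 against 6.88 ± 0.809 FPKM (0.65, adjusted p = 0.000198), and the mRNA export adaptor Alyref at 86.9 ± 1.81 against 58.8 ± 2.63 FPKM (0.56, adjusted p = 6.28e-06). Ranbp6, an importin-like protein, was lower at 8.26 ± 0.588 against 10.0 ± 0.294 FPKM (-0.26, adjusted p = 0.00381), as was the inner membrane protein Tor1aip1 at 33.8 ± 0.840 against 36.2 ± 0.991 FPKM (-0.10, adjusted p = 0.0226). The mRNA export receptor Nxf1 was at 43.1 ± 1.80 against 42.8 ± 1.57 FPKM (0.0088, adjusted p = 0.873), while its cofactor Nxt1 was at 47.3 ± 3.36 against 32.9 ± 0.841 FPKM (0.51, adjusted p = 8.44e-05), both named after their values were seen.

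Genes of the cell cycle moved with the members. All 22 genes of a proliferation list were called higher without overlap, against 20.9% of all genes tested called higher and 20.2% without overlap. Their median log2 fold change was 0.89, and their summed FPKM was 2773 to 2841 in Nrp-1+ iTreg and 1545 to 1564 in Nrp-1- iTreg. The largest changes were those of the replication helicase subunit Mcm5 (1.00), the topoisomerase Top2a (1.00) and the ribonucleotide reductase subunit Rrm2 (0.97). Kpna2 at 0.92 and Rcc1 at 0.72 lay within the range of this list, 0.67 to 1.00, and every other member lay below it. The part of proliferation in the differences between the members was not tested.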

How the data were processed

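RNA-seq was performed on 4 libraries of Nrp-1+ and 4 of Nrp-1- mouse iTreg. The authors used the CLC Genomics Workbench for the reads and Cufflinks for FPKM, and deposited 1 FPKM value for each gene symbol and library. GRCm38 (mm10) stands in the submitters' processing notes, and the annotation is not given in the sources used here. The paper and the labels name different library kits. FPKM values are not counts, fragment numbers are unknown, and no counting interval is given.

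No further scaling was applied. For genes averaging 1 FPKM or more, log2(FPKM + 1) was fitted in limma 3.58.1 under R 4.3.3 (lmFit, then eBayes with trend), two-sided, with Benjamini-Hochberg adjustment over all 10467 genes, and a call means an adjusted p under 0.05. The added 1 makes fold changes of low genes too small. Python 3.11.15, numpy 2.4.6, pandas 2.3.3 and matplotlib 3.10.9 were used for the rest. Coordinates and promoters are from RefSeq, assembly GRCm38.p6.

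The members and gene lists were chosen with earlier results of these data known. Values in every library are given for the 14 members with the largest called change, for the member of largest change in each remaining class and for the 3 with the highest mean. Of the other lists, the 3 largest called changes and up to 2 in the opposite direction are named. Members of no such rank are given by range. The values of 1 marker gene, and the list sum that includes it, are not reported here.

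The alternatives comprised other pseudocounts (0.1 and 0.5), other filters (none, or 5 FPKM), size factors, quantile normalization, the replicate block, no trend, array weights, no short RNA genes, a GC and length correction without and with the block, the exact Mann-Whitney test, and each library left out. By the Mann-Whitney test a gene was counted when its groups did not overlap, at an unadjusted two-sided p of 0.0286.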

Additional observations from a re-analysis of the deposited data

Results flagged for a closer look

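In 7 members a single library lay far from the other 3 of its group by Dixon's criterion. With 96 groups examined, about 4.8 such values are what chance gives. In Nrp-1- iTreg, replicate 2 held 3 of them: Ran at 146.8 FPKM (the others 143.3 to 143.7), Nup88 at 31.3 FPKM (28.1 to 28.6) and Nup85 at 15.5 FPKM (16.3 to 16.4), above the rest in the first 2 and below in the last. In Nrp-1+ iTreg, replicate 2 held another 3: Nup160 at 12.4 FPKM (the others all 12.9 after rounding), Nup155 at 7.67 FPKM (8.17 to 8.19) and Xpot at 10.2 FPKM (9.58 to 9.60). In Nrp-1+ iTreg replicate 1, Nup107 was at 26.9 FPKM (24.5 to 24.7). Of these genes only Nup88 changed its call when that library was left out.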

How the results depend on the processing

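Of the 32 called members, 24 kept their call in all 21 alternative fits, 8 lost it in at least 1 (Xpo4 in 12, Ipo4 in 7, Kpna6 and Nup210 in 4 each, Nup98, Nup43, Nup35 and Nup50 in 1), and 0 changed sign. The fit without the 3 libraries rich in short RNA was chosen after seeing the data. It left 1230 lower calls among all genes, 1 lower member, 1 lower gene on the other pathway list, 0 calls for Nup98, 0 lower importin α genes, 0 higher basket genes and a member median of 0.23, and Ipo8 turned to 0.0091. The count of 2 lower members became 1 without a filter, at 5 FPKM (where Ipo4 was not tested) and by the unadjusted Mann-Whitney test, each with 0 lower import receptors. With the GC and length correction it became 4. That correction also gave 4 lower genes on the other list, 2 lower exportins, a proliferation median of 0.845 (likewise with the block), and Ranbp2 at -0.0015 and Nup153 at -0.0043 (again with and without the block). Quantile normalization gave 1 lower exportin and Xpo7 at -0.0059. The labels tie the replicate numbers to no shared animal or day. Deviations of same-numbered libraries from their group means correlated between -0.54 and 0.010 over all genes tested and between -0.11 and -0.036 without short RNA genes. Over the members the correlations were 0.13, -0.011, 0.23 and 0.13 for replicates 1 to 4. The libraries were taken as unpaired by the planned design, because the paper names an unpaired comparison of the subsets. With the replicate number as a block, 28 members were higher and 2 lower, beside 1931 higher and 1675 lower of all genes tested. Xpo4 (adjusted p = 0.0590 by limma) and Nup210 (0.0768) lost their calls, leaving 1 higher membrane gene, and the other pathway list had 1 lower gene. Leaving out single libraries gave 28 to 30 higher and 0 to 2 lower members, beside 1965 to 2061 higher and 1777 to 1916 lower of all genes tested. It also gave 0 to 1 lower import receptors, 0 to 1 lower importin α genes, 1 to 2 higher membrane genes, 0 to 1 higher filament genes and 1 to 2 lower genes on the other list. Ranbp2 lay between -0.00094 (without replicate 3 of Nrp-1- iTreg) and 0.048, and was at -0.0002 without replicate 2 of Nrp-1+ iTreg. The cause of these changes was not tested. Without fragment counts, depth limits the members under 1 FPKM most.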

Other observations

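Seh1l and Sec13, the 2 uncalled genes of the Y complex, share the GATOR2 complex, and Sec13 also the COPII coat. The other subunits of GATOR2 and COPII, a list chosen after these values were seen, held 12 tested genes, of which 1 was higher and 2 lower by limma (8.33% and 16.7%, not above the 20.9% and 20.0% of all genes tested). The called genes are given as values only. Wdr59 of GATOR2 was at 4.14 against 4.80 FPKM (log2 fold change -0.18, adjusted p = 0.0167) and Sec31a, the partner of Sec13 in the COPII cage, at 32.03 against 35.5 FPKM (-0.15, adjusted p = 0.0017), while Sec23b of the inner COPII coat was at 26.3 against 23.2 FPKM (0.18, adjusted p = 0.00209). The GATOR2 subunits Mios (-0.05, adjusted p = 0.377) and Wdr24 (-0.07, adjusted p = 0.273) were not called.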
